A study of Arabidopsis thaliana with 4 samples.

Results

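The 34 loci described here encode proteins of jasmonate synthesis, breakdown and signalling in Arabidopsis. They comprise 12 *JAZ* repressor genes, *COI1* and *NINJA*, 5 transcription factor genes, 11 genes of synthesis, *JAR1* for conjugation and 3 *CYP94* genes for breakdown. The sites were taken from a list of chromatin regions enriched by precipitation of FRUITFULL (FUL), a MADS domain protein that acts in fruit development. This list is longer than the set of sites that the paper reports as significant. A site of any score was assigned to a locus when its maximum fell into a window that began 3000 bp before the start codon and ended 1000 bp after the stop codon. The rule gave 42 of the 2831 listed sites at 18 of the 34 loci, and no site was shared by any of these loci. Of these 42 sites, 10 reached a score of 5.6, the stricter limit used below. The list gives no false discovery rate, so that a listed site below this limit is not taken as shown to be bound.

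FUL-GFP was precipitated with a GFP antibody in 2 ChIP samples, and 2 input samples of the same tissue were sequenced as controls. All plants carried pFUL:FUL-GFP in the *ful-1* mutant, in a mixed Col/Ler background, so that the tagged protein was made under the *FUL* promoter. Each replicate used about 1 g of pistils and siliques of stages 12 to 16, collected throughout the day, from plants that the labels place on soil and the methods on rockwool. The list gives each site a start, an end, a maximum and a single score of enrichment over the input that combines both replicates, without a unit, an error or a read number. No spread between replicates could therefore be computed, and the values below are descriptions without a test. Binding gives no transcript level, and the tissue could not be checked by marker genes.

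Jasmonate is made in plastids and peroxisomes from linolenic acid, and its conjugate with isoleucine is the active hormone. In the presence of this conjugate, the F-box protein COI1 binds JAZ proteins and directs their destruction, which frees MYC2 and related transcription factors from repression through the adaptor NINJA. The hormone is known for the wound response and, in the flower, for stamen filament growth, anther opening and pollen maturation, for which MYB21 and MYB24 act downstream.

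The sequences below are shown because they carry the highest scores at genes of breakdown, at *JAZ* genes and at genes of synthesis, the highest score inside a *JAZ* coding span, or a pair of G-boxes near the maximum. A G-box, CACGTG, reads the same on both strands and is bound by MYC2 and its relatives. Each run covers 100 bp to both sides of the maximum on the strand of the gene, in lower case with any G-box in capitals, and comes from the RefSeq TAIR10.1 genome.
*CYP94B3*, score 15.73, chr3:17975836-17976036, minus strand: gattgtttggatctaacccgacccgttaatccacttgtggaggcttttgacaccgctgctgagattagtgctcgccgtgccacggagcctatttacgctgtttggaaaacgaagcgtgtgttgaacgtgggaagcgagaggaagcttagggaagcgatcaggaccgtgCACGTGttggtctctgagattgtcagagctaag
*JAZ6*, score 11.67, chr1:27276809-27277009, minus strand: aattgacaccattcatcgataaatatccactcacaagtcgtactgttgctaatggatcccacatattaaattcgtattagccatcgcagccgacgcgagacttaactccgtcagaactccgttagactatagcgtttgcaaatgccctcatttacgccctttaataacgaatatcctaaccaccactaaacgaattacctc
*LOX4*, score 9.55, chr1:27309379-27309579, plus strand: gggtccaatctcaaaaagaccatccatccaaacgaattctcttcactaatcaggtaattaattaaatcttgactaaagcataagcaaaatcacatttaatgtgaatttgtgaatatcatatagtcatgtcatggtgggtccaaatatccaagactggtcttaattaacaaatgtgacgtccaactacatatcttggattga
*AOS*, score 7.63, chr5:17098309-17098509, minus strand: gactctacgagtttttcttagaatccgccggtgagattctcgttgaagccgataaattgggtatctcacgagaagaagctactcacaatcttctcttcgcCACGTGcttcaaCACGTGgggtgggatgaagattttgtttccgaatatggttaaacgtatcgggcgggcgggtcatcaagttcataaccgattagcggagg
*JAZ1*, score 7.0, chr1:6622738-6622938, plus strand: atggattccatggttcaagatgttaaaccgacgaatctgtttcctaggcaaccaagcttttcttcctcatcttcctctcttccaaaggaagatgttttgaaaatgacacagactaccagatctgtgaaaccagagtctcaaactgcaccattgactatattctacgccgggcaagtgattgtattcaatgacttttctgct
*JAZ3*, score 4.43, chr3:6119431-6119631, plus strand: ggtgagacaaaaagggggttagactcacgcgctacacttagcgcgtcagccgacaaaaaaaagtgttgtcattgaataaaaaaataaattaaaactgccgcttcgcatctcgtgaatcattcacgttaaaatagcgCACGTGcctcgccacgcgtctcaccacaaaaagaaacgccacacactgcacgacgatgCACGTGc

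The G-boxes near the maxima at 3 further loci are shown in shorter runs, again on the strand of the gene and with the G-box in capitals.
*JAZ10*, score 9.55, 20 bases: gaaaCACGTGagtattagtt
*JAR1*, score 5.57, 26 bases: acggcactgcCACGTGtaagcacgaa
*JAZ5*, score 4.18, 26 bases: ctatttaaacCACGTGttttaatcaa

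Of the 34 jasmonate loci, 18 (52.9%) had at least 1 site, against 14.0% of all 27444 protein-coding genes. Sites that reached a score of 5.6, a stricter limit, lay at 8 of the 34 loci (23.5%), against 4.47% of the protein-coding genes. At least 2 sites were assigned to 9 loci (26.5%), against 2.07%. At least 4 sites were assigned to *JAZ1*, *JAZ5*, *MYC2*, *LOX3* and *LOX4* (14.7% of the loci), against 0.0947%, and these 5 loci held 24 of the 42 sites. The shares were not compared by a test. At 39 of the 42 sites, the jasmonate gene was also the nearest protein-coding gene.

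The median score was close to that of the whole list. The 42 sites ranged from 3.0 to 15.73 with a median of 4.3 and quartiles of 3.4 and 5.57. The whole list reached 1071.13 with a median of 4.43 and quartiles of 3.4 and 6.81, and 10 of the 42 jasmonate sites (23.8%) reached 5.6, against 29.9% of the list. Scores were often tied, and 8 of the jasmonate sites had the score 3.4 that 689 listed sites shared. The jasmonate sites had a median length, from listed start to end, of 149 bp, against 124 bp in the list, and 6 of them (14.3%) were no longer than 10 bp, against 9.54% of the list.

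**Figure D1:**
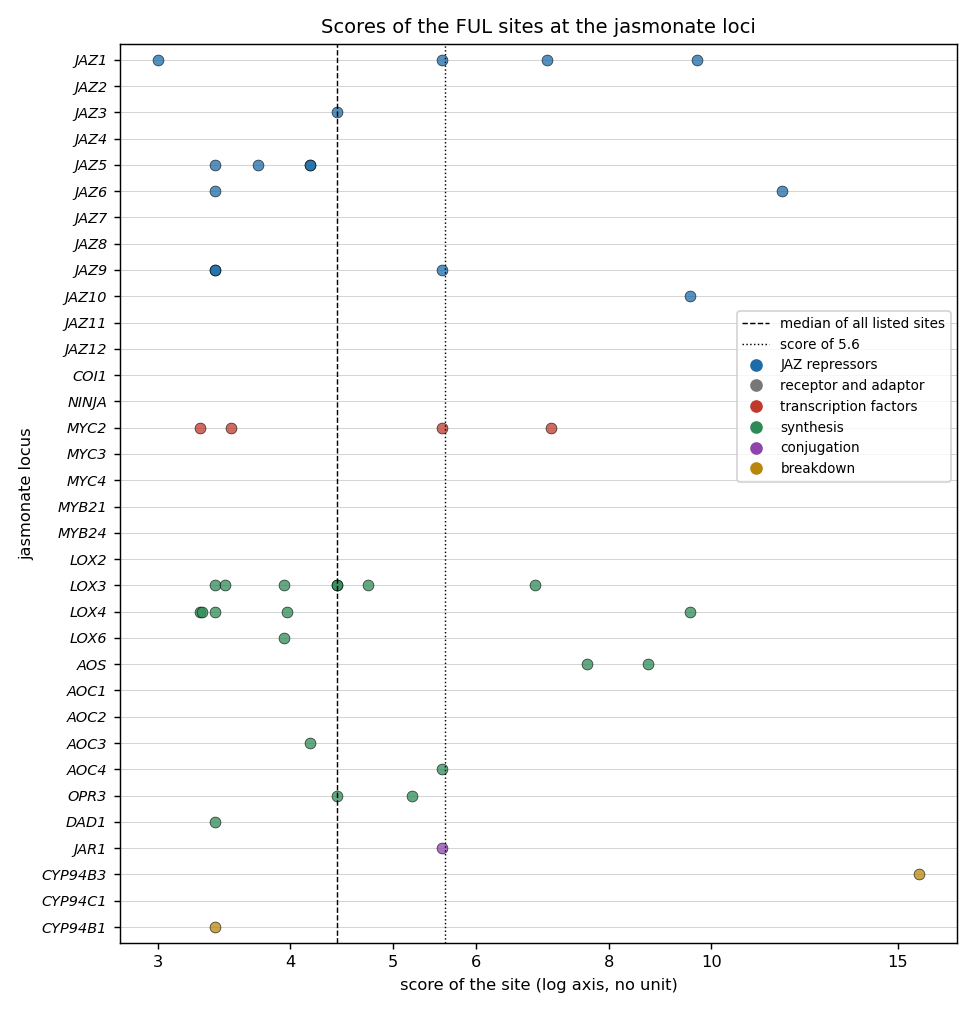
Each point is 1 site, placed by its score on a log axis without a unit, with the 34 jasmonate loci in rows and colours for their roles. The dashed line is the median of all listed sites, 4.43, the dotted line is the score of 5.6, and rows without points are the 16 loci without a site, *COI1* and *NINJA* among them.

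The JAZ repressors hold back the jasmonate response until they are destroyed, and 6 of the 12 *JAZ* loci had a total of 15 sites. *JAZ1* (AT1G19180, chr1:6621777-6623668) had 4 sites. Their scores were 3.0 at 1244 bp upstream, 5.57 at 18 bp upstream in the 5′ untranslated region, 7.0 at 526 bp inside the coding span and 9.69 at 611 bp downstream of the stop codon. The scores thus increased along the gene, but the highest maximum, in a site of 578 bp, lay inside the coding sequence of the neighbouring gene AT1G19190. *JAZ6* (AT1G72450, chr1:27273968-27276562) had the highest score of the family, 11.67, at 773 bp upstream, in a site of 540 bp at chr1:27276659-27277199. No other site upstream of a start codon of the 34 loci reached 5.6. A weak site of *JAZ6*, with a score of 3.4 at 502 bp downstream, was closer to AT1G72440. *JAZ10* (AT5G13220, chr5:4218786-4221077), splice forms of which resist destruction, had a single site of 9.55 in its 3′ untranslated region, 545 bp downstream of the stop codon.

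The remaining *JAZ* sites were below 5.6. *JAZ5* (AT1G17380, chr1:5955155-5957511) had 4 sites, with scores of 4.18 at 984 bp upstream, 4.18 at 83 bp and 3.73 at 780 bp inside the coding span, and 3.4 at 532 bp downstream, where AT1G17370 was closer. *JAZ9* (AT1G70700, chr1:26654529-26657350) had 2 sites of 3.4 in coding exons, at 895 and 1296 bp, and 1 of 5.57 at 860 bp downstream. *JAZ3* (AT3G17860, chr3:6119707-6123044) had 1 site of 4.43 at 437 bp upstream of the start codon. The family had 5 sites upstream, 5 inside and 5 downstream, in regions of unequal length (3000 bp, the coding span and 1000 bp). No site was assigned to *JAZ2*, *JAZ4*, *JAZ7*, *JAZ8*, *JAZ11* or *JAZ12*. The nearest listed site was 4677 bp away from *JAZ2*, and between 18130 bp (*JAZ12*) and 95285 bp (*JAZ11*) away from the other 5.

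Among the transcription factors, only *MYC2* had sites. *MYC2* (AT1G32640, chr1:11798119-11801407), the bHLH factor that activates many jasmonate-responsive genes, had 4 sites, and all lay in its single coding exon. Their scores were 5.57 at 137 bp, 7.05 at 933 bp, 3.29 at 1301 bp and 3.52 at 1747 bp from the start codon, in a coding span of 1872 bp. The site in the middle of the exon was thus the highest and the longest, with 321 bp, whereas the 2 sites towards the stop codon were 5 and 38 bp long. A transcript of AT1G32630 is annotated over *MYC2* on the opposite strand, and ChIP-Seq does not tell the strands apart. Its relatives *MYC3* and *MYC4*, which share functions with *MYC2*, had no site within 10000 bp. The nearest sites were 19600 bp upstream of *MYC3* and 26561 bp downstream of *MYC4*. *MYB21*, a stamen factor, missed the window narrowly, since a site of 14.22 lay 1242 bp downstream of its stop codon. For *MYB24* the nearest site, of 7.0, lay 5311 bp downstream. The receptor gene *COI1* and the adaptor gene *NINJA* had no site, and the nearest were 25403 and 10038 bp upstream of them.

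Synthesis was the role with the most sites. Of its 11 loci, 8 (72.7%) had a site, against 14.0% of all protein-coding genes. These 8 had a total of 20 sites, 16 of them between start and stop codon. The lipoxygenases LOX3 and LOX4 start the oxidation of linolenic acid, and both are known for male fertility. *LOX3* (AT1G17420, chr1:5977323-5981521) had 7 sites, the most of the 34 loci. One of 3.4 lay 166 bp upstream, and the others had scores of 3.95 at 23 bp, 4.43 at 747 bp, 4.74 at 1070 bp, 4.43 at 2014 bp, 6.81 at 2279 bp and 3.47 at 3435 bp inside the coding span of 3873 bp. The sites of *LOX3* at 2014 and 2279 bp were in introns. *LOX4* (AT1G72520, chr1:27308513-27312756) had 5 sites, all inside its coding span of 3979 bp. The highest, 9.55 at 868 bp, lay in an intron and covered 673 bp, and those at 2031, 2532, 2713 and 3325 bp scored 3.4, 3.97, 3.29 and 3.3. The sites of both genes were thus spread along the coding span, but each had only 1 site of at least 5.6. *LOX6* (AT1G67560, chr1:25319804-25324581) had a single site of 3.95 at 225 bp upstream of its start codon, and *LOX2*, the lipoxygenase of wounded leaves, had its nearest site 88103 bp away.

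Further along the pathway, *AOS* (AT5G42650, chr5:17097564-17099595), which encodes allene oxide synthase, had a site of 7.63 at 950 bp and one of 8.71 at 1487 bp in a coding span of 1557 bp. It was the only synthesis gene with both of its sites above 5.6. The allene oxide cyclase genes *AOC1*, *AOC2* and *AOC3* lie in a row on chromosome 3, and only *AOC3* (AT3G25780, chr3:9409160-9411090) had a site, with a score of 4.18 at 902 bp in a coding exon. That site was also the nearest to *AOC2* and *AOC1*, at 2425 and 5159 bp downstream of their stop codons. *AOC4* (AT1G13280, chr1:4547388-4548894) had a site of 5.57 in its 3′ untranslated region, 224 bp downstream of the stop codon. *OPR3* (AT2G06050, chr2:2359114-2362375), the reductase without which plants are male sterile, had sites of 4.43 at 243 bp and 5.21 at 2320 bp, both in coding exons. *DAD1* (AT2G44810, chr2:18478374-18480457), a lipase that releases linolenic acid and is needed for anther opening, had a site of 3.4 that was 5 bp long and lay 365 bp downstream of its stop codon.

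The highest score of all 34 loci belonged to a gene of breakdown. *CYP94B3* (AT3G48520, chr3:17974853-17976774) encodes a hydroxylase that inactivates the isoleucine conjugate, and its single site scored 15.73. The site covered 453 bp, chr3:17975685-17976138, had its maximum 688 bp from the start codon in a coding exon, and ranked 183 in the list of 2831. Its relative *CYP94B1* (AT5G63450, chr5:25408821-25410725) had a site of 3.4 that was 21 bp long, at 292 bp inside the coding span. *CYP94C1*, which oxidises the conjugate further, had no site in the window, and the nearest, of 8.14, lay 2074 bp downstream. *JAR1* (AT2G46370, chr2:19033586-19036683), the enzyme that forms the conjugate, had a site of 5.57 at 2354 bp upstream, the most distant of the upstream sites. At the limit of 5.6, *JAZ1*, *JAZ9*, *MYC2*, *AOC4* and *JAR1* each had a site just below it, at the score 5.57 that 222 listed sites shared.

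**Figure D2:**
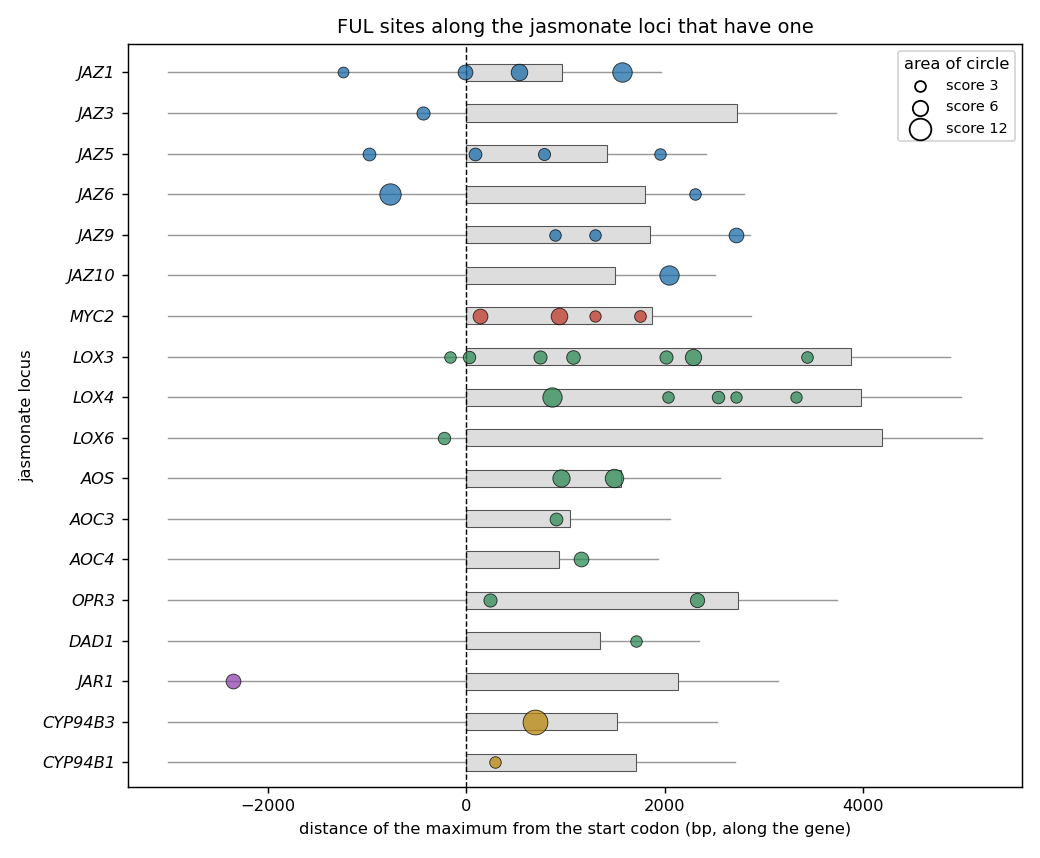
The 18 jasmonate loci with a site are drawn in rows, with the distance from the start codon along the gene in bp on the x axis, the coding span as a grey box and the window as a line. Each circle is 1 site, its area is proportional to its score, and the circles of *MYC2*, *LOX3* and *LOX4* lie along the coding span, whereas that of *JAZ6* at 11.67 lies upstream.

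The sites at the jasmonate loci were found mainly inside the genes. Between start and stop codon lay 27 of the 42 sites (64.3%), 23 in coding exons and 4 in introns. This compares with 26.2% of the 4498 assignments of sites to other protein-coding genes. Upstream of the start codon lay 8 jasmonate sites (19.0%), against 56.8% of these assignments, and downstream of the stop codon 7 (16.7%), against 17.1%. A listed site counts in the assignments once for every gene whose window holds it, whereas each jasmonate site counts once. With every site counted once, 1630 of the 2831 listed sites lay outside the coding span of any gene, against 14 of the 42 jasmonate sites. The 14 leave out the *JAZ1* site inside AT1G19190. Of the 34 loci, 11 (32.4%) had a site between start and stop codon, against 3.99% of all protein-coding genes, and 7 (20.6%) had one upstream, against 8.35%. Per 100 kb of coding span, the jasmonate loci had 41.3 sites, against 2.28 at the other genes, the densities upstream were 7.84 against 3.1, and those downstream 20.6 against 2.8. The density was thus higher at the jasmonate loci in all 3 regions, and it differed most inside. Of the 7 downstream sites, 3 were closer to another protein-coding gene, namely those of *JAZ1*, *JAZ5* and *JAZ6*. Median coding spans were 1738 bp at the jasmonate loci and 1568 bp at the other genes. *LOX3* and *LOX4* contributed 11 of the 27 sites, and without them 16 of 30 sites (53.3%) were inside, or 27.8 per 100 kb. Of the 10 jasmonate sites that reached 5.6, 7 were inside. In the whole genome, only 4 protein-coding genes had at least 4 sites between start and stop codon, and 3 of these were *LOX3*, *LOX4* and *MYC2*. This count rests mainly on weak sites, since each of these 3 genes had only 1 site of at least 5.6.

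**Figure D3:**
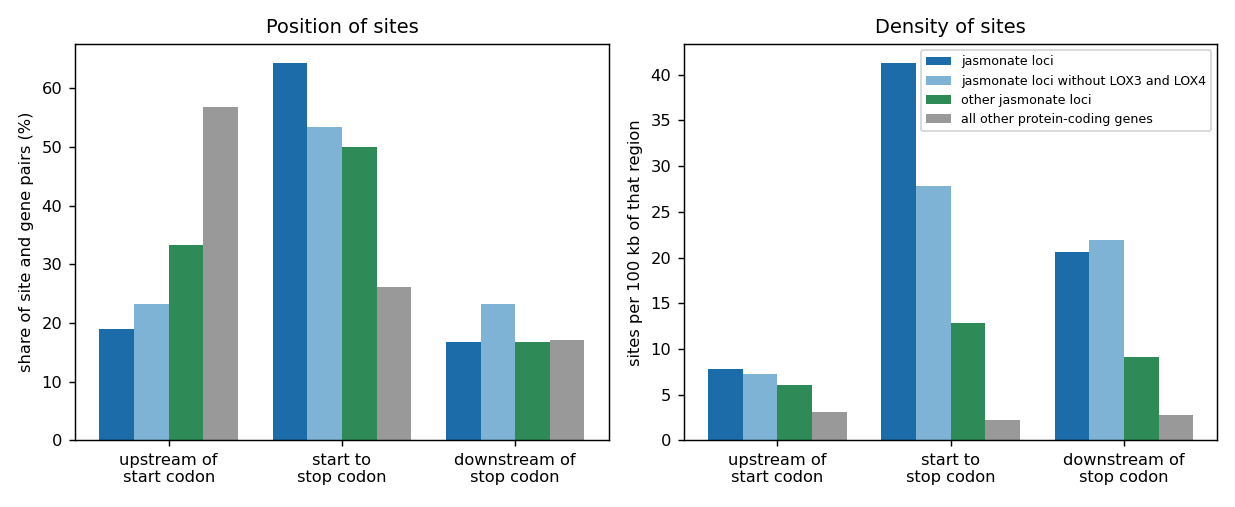
Left, the share of site and gene pairs in percent by region, and right, the number of sites per 100 kb of that region, for the jasmonate loci, the same without *LOX3* and *LOX4*, 33 other jasmonate loci and all other protein-coding genes. The jasmonate loci have 64.3% of their sites between start and stop codon, against 26.2% of the pairs at the other protein-coding genes. In those pairs a site can count for several genes.

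Most of these sites were on chromosome 1, which held 31 of the 42 jasmonate sites (73.8%), against 26.5% of the whole list. The chromosome carried 12 of the 34 loci, of which 9 had a site, whereas 9 of the 22 loci on the other chromosomes had one. Over all chromosomes, 14.0% of the protein-coding genes had a site. *JAZ5* and *LOX3* lie 19812 bp apart on chromosome 1, and *JAZ6* and *LOX4* lie 31951 bp apart, so that these 4 loci with 18 sites form a pair of *JAZ* and *LOX* neighbours at each of 2 places. On chromosome 4, *MYC4* and *NINJA* had no site.

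The CArG box is the sequence that MADS domain proteins bind, written here as 2 C, 6 bases that are A or T, and 2 G, and searched on both strands within 100 bp of each maximum. None of the 42 jasmonate sites had one. A count of 0 allows about 3 sites, or a share of up to 7.14%, by counting error only. This limit is approximate because it takes the sites as independent, whereas 24 of the 42 came from 5 loci. In the whole list 135 of 2831 sites (4.77%) had a CArG box, among the sites in coding exons 14 of 1004 (1.39%), and in windows 3000 bp away from the sites 1.10%. With at most 1 mismatch, a match was found at 9 jasmonate sites (21.4%), against 32.1% of the list and 23.2% of the distant windows. This order depended on position. Position was set here by any gene, so that the *JAZ1* site inside AT1G19190 counted as in a coding exon. Such a match was found at 25.0% of the 24 jasmonate sites in coding exons, against 15.9% in the list. Outside coding spans, the share was 21.4% of 14 jasmonate sites, against 42.3% in the list. A G-box was found at 6 of the jasmonate sites (14.3%), against 13.1% of the list, 6.08% of its sites in coding exons and 2.78% of the distant windows. The share at the jasmonate loci was therefore close to that of the whole list. By position, it was 8.33% in coding exons and 28.6% outside coding spans, against 6.08% and 18.3% in the list.

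The 6 sites with a G-box belonged to genes of several roles. At *AOS*, 2 G-boxes lay 3 and 15 bp from the maximum of 7.63, and at *JAZ3* there were 2, at 39 and 97 bp. The distances were 35 bp at *JAR1*, 43 bp at the upstream site of *JAZ5*, 71 bp at *CYP94B3* and 93 bp at *JAZ10*. None of the *MYC2*, *LOX3* and *LOX4* sites had one, nor had the *JAZ6* site of 11.67. A match is only an occurrence of these letters, and it does not show which protein was bound there.

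**Figure D4:**
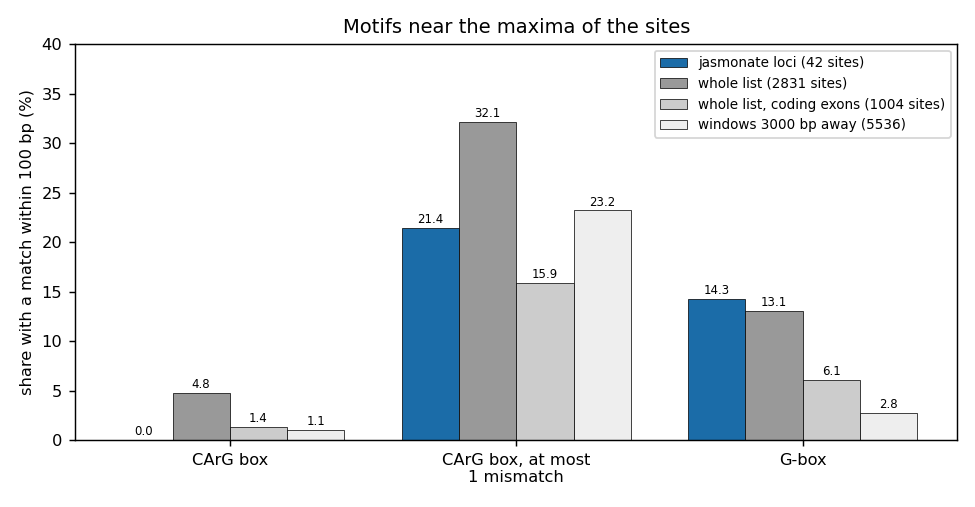
The bars give the share, in percent, of windows with a CArG box, a CArG box with at most 1 mismatch, or a G-box within 100 bp of the maximum, for the 42 jasmonate sites, the whole list, its sites in coding exons and windows 3000 bp away. No bar is drawn for the CArG box at the jasmonate sites, and their G-box bar, 14.3%, is next to that of the list, 13.1%.

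A list of 33 other jasmonate loci, which are not among the 34, was examined in the same way. These loci were chosen with earlier results of these data known, so that they are not an independent set. At least 1 site was found at 15 of them (45.5%), against the 14.0% of all protein-coding genes. A site of at least 5.6 was found at 6 (18.2%), against 4.47% of all protein-coding genes. The 33 loci had 18 sites, 9 of them between start and stop codon, and none with a CArG box. Among regulators, *JAZ13*, a further repressor, had 11.03 at 579 bp upstream, and the repressive bHLH genes *JAM1* and *JAM3* had 6.81 at 2080 bp and 5.57 at 10 bp upstream. The ethylene response factor gene *ORA59* had sites of 3.14 and 3.0 inside its coding span. Among enzymes, *JOX3*, a jasmonate oxidase gene, had 6.47 at 141 bp inside the coding span, and *JOX4* had 4.43 at 2268 bp upstream and 3.4 at 364 bp downstream. The methyltransferase gene *JMT* had 4.43 at 533 bp downstream. Sites of at most 3.4 were listed at the desaturase gene *FAD3*, the CoA ligase gene *OPCL1*, the amidohydrolase gene *ILL6* and the sulfotransferase gene *ST2A*. Among genes that respond to jasmonate, the storage protein genes *VSP1* and *VSP2* had 12.13 at 818 bp and 5.6 at 213 bp inside the coding span. *TAT3*, for a tyrosine aminotransferase, had 6.81 at 106 bp and the defensin gene *PDF1.2* had 3.4 at 232 bp. As at the 34 loci, the sites with the highest scores were thus both upstream, at *JAZ13*, and inside, at *VSP1*.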

How the data were processed

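Reads of 2 ChIP and 2 input samples were aligned by the authors with SOAPv2 to TAIR9, allowing 2 mismatches without gaps. They used reads with a unique position, left out organelle reads and called sites with CSAR relative to the input. Reads shared by near-identical copies were therefore not counted, and their part in loci without a site was not tested. Versions of these tools are not given in the sources used here. The deposited score is a combined value per site, without a value per replicate, so that depth and error are unknown. No test was possible.

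The 34 loci were matched by locus identifier to the RefSeq TAIR10.1 annotation. The chromosome lengths of the releases agree, and all deposited sites, with their TAIR9 coordinates, lay within them. Regions, shares and motifs were counted with Python 3.11.15 and drawn with matplotlib 3.10.9. The median length and motif windows (201 bp) refer to listed sites. The stricter score of 5.6 was the lowest in the study's table of significant loci. It does not reproduce that table, since 846 listed sites reached 5.6, more than the paper reports as significant. On chromosome 1, the study's table names *JAZ6*, *MYC2* and *LOX4*, but not *JAZ1* or *LOX3*, which also had sites of at least 5.6. It does name AT1G19190, the neighbour of *JAZ1*, with scores of 9.69 and 7 that *JAZ1* sites also had. The absence of the name *JAZ1* therefore does not mean that these sites were left out. In a check of the code, 800 of 800 positions set at known distances from real genes were placed correctly inside or outside the window. In random sequence, 200 of 200 planted CArG boxes were found. This check does not measure how well binding sites were called.

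The loci and gene lists were chosen with earlier results of these data known. All 34 loci are named, the other jasmonate loci where they had a site, and neighbouring genes where they were nearer to a maximum. Alternatives concerned the score, the window, the gene ends, the nearest gene, the midpoint of the site and the motif.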

Additional observations from a re-analysis of the deposited data

How the results depend on the processing

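At a score of at least 5.6, there were 8 jasmonate loci with 10 sites, among them 3 *JAZ* loci, and the median score became 9.13. Of these sites, 1 was upstream of a start codon and 7 were inside the coding span. The other jasmonate loci with such a site numbered 6, and 4.47% of all protein-coding genes had one. At or above the median of the list, there were 21 sites with a median of 5.57 and 9 of the other jasmonate loci. The median score was 4.18 in a narrow window (1000 bp upstream, 500 bp downstream) and 4.43 in a wide one (5000 bp upstream), with the nearest gene only, or with transcript ends. Without *LOX3* and *LOX4*, 16 sites were inside, an alternative chosen after seeing the data, as were all alternatives to the number inside. A CArG box was found at 9 sites with at most 1 mismatch, and at 6 sites (against 22.9% of the list) when 3 forms with 6 to 8 A or T bases were allowed. The other 31 values moved by less than 1.5 times, as did the median scores of 4.18, 4.43 and 5.57, against 4.3. Where the window or the assignment was changed, there were 16 to 19 jasmonate loci with a site and 35 to 45 sites. The *JAZ* loci with a site numbered 5 or 6, and the other jasmonate loci 13 to 16. The share of all protein-coding genes with a site was not recomputed for these changes.

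No paired analysis was possible because the list holds a single combined score per site. Leaving out each replicate and the replicate block were planned and not run for this reason. The score has no error, scores of 3.4 and 5.57 are shared by many sites, and depth per library is unknown, so that absence from the list does not show absence of binding.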

Other observations

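Outside the jasmonate loci, *ACS6* (AT4G11280), which encodes an enzyme of ethylene synthesis, was the only gene with 4 sites between start and stop codon. A further 7 genes had 3 such sites, namely AT1G61890, *RAP2.4*, *PMR6*, AT4G27720, *CAT6*, *EXL4* and *MPL1*. These genes were chosen after their values were seen.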
